A study of Mus musculus with 12 samples.

Results

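The genes described here encode the glucose transporters and enzymes that carry sugar through glycolysis, into and out of glycogen and through the pentose phosphate route. They were taken as a list of 34 symbols, and a gene with several probesets was read from that of highest average signal. A probeset that carried the gene's symbol alone was found for 29 of 34, against 19938 such genes in the whole series, and all 29 passed the filter on low values. Gapdh was represented only by 25 probesets that also list other genes and received no value, and no probeset was matched to Gpi1, Eno1, G6pdx or Pfkfb1. Expression was measured in 12 subcutaneous tumors, 4 each of the VR, VdR and R groups, numbered 1, 2, 4 and 5. All tumors grew from J2A cells, a single line of aortic myofibroblasts from C57BL/6 mice deficient for p16, p19 and Vnn1, transduced with a retroviral vector that encodes H-RasV12 and GFP behind a CMV promoter. VR cells also carried intact mouse Vnn1, the pantetheinase that splits pantetheine into pantothenate and cysteamine. VdR cells carried Vnn1 without catalytic activity, and R cells carried Ras and GFP without Vnn1. For each tumor, J2A cells were grafted under the skin of a nude mouse on normal diet, and tumors were taken after 2 to 3 weeks, depending on growth, per the labels, whereas the study's methods give a single day of harvest. Nude mice lack T cells but keep macrophages, vessels and other host cells. A separate transduction for each tumor was not described, so p-values cover the spread between tumors of a transduced line.

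Glycolysis starts with glucose uptake and its trapping by hexokinase. Phosphofructokinase commits the sugar to breakdown, aldolase and triose phosphate isomerase split it into trioses, and the lower steps end with pyruvate kinase and yield ATP. Branches leave near the top, to glycogen through phosphoglucomutase and glycogen synthase and to NADPH and ribose through the pentose phosphate route. Many glycolytic genes are known targets of hypoxia-inducible factors and are often high in Ras-transformed and oxygen-poor tumors. Several steps have isoforms from different genes with different tissue distribution, such as the muscle, liver and platelet forms of phosphofructokinase.

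The values were log2 expression after RMA, an array normalization that places all arrays on a common distribution, and array medians ranged from 6.66 to 6.77. Vnn1 followed the labels, at 10.87 ± 0.34 in VR, 11.56 ± 0.16 in VdR and 5.70 ± 0.13 in R tumors (SD, n = 4 each), although a probeset cannot tell the intact from the inactive transcript. Cdkn2a, the p16/p19 gene, read 7.80 to 7.96 in VR, 7.84 to 7.92 in VdR and 7.88 to 8.06 in R tumors, and since the position of its probes relative to the deleted part was not known, it checks nothing. The mean over 12 myofibroblast markers was high in every tumor, at 11.94 to 12.13 in VR, 11.66 to 11.92 in VdR and 11.51 to 11.88 in R. Skeletal muscle genes set some tumors apart: the mean over 12 of them was 8.06 in VR tumor 2, 8.37 and 8.91 in VdR tumors 2 and 4 and 8.72 and 8.12 in R tumors 2 and 5, against 6.55 to 6.66 in the other 7. Counts were therefore also made without these 5 tumors. The extraction text of the labels mentions sorted cells, whereas the study's methods describe RNA of the total tumor mass.

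The glucose transporter Slc2a1, hexokinase Hk2, all 3 phosphofructokinase genes, the 3 measured aldolase and triose genes, 3 of 5 lower-glycolysis genes and, of the 7 glycogen genes, Gys1, Pgm1 and Pgm2 were lower in VR tumors than in R tumors. Of 29 members, 14 were lower, 3 were higher and 12 did not pass (limma with Benjamini-Hochberg adjustment over 16573 genes, adjusted p under 0.05), while 7.48% of all genes tested were lower and 13.6% higher. Their median log2 fold change was -0.41, against -0.015 over all genes. In 12 members every VR tumor lay below every R tumor, and in 2 every VR tumor lay above, where 10.5% and 15.3% of all genes did so. The decreases ranged from -0.32 for Pgm2 to -1.50 for Slc2a1, and the 3 increases, in Pfkfb4, Hk3 and Pfkfb2, from 0.26 to 0.32. Without R tumor 4, 9 members were lower, where 4.68% of all genes were. Leaving out the 5 tumors high in muscle genes gave 18 lower and 1 higher, where 5.9% and 11% of all genes were, and left R tumors 1 and 4, which had the highest member means. In RNA of whole tumors, fewer cells of a type and less RNA per cell cannot be told apart.

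**Figure D1:**
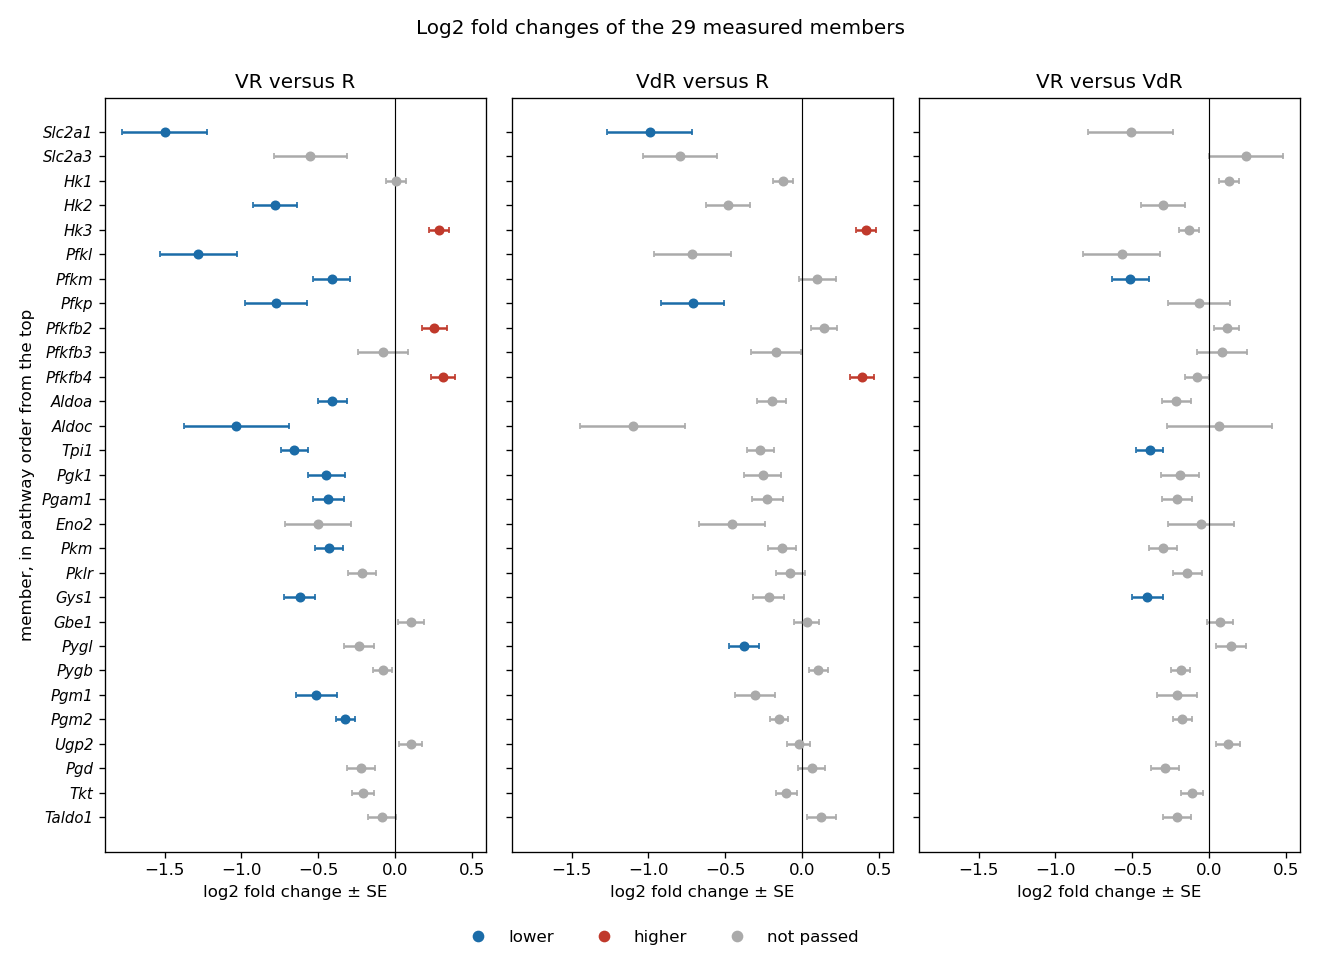
Log2 fold change (x axis, with SE) of each of the 29 measured members (y axis, in pathway order) in VR versus R, VdR versus R and VR versus VdR. Blue points were lower, red points higher and grey points did not pass at an adjusted p under 0.05. In VR versus R, 14 members lie left of 0 in blue, from -1.50 for Slc2a1 to -0.32 for Pgm2.

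The promoters of members that fell together are shown with ACGTG, a form of the core motif that hypoxia-inducible factors bind. Other forms of the core were not counted. The 250 bases before the annotated start were read from RefSeq (GRCm38.p6) for 33 of 34 members, and only the first listed start of a gene was used. For some members, among them Hk3 and Pfkfb2, the window lies partly or wholly within the annotated span of the gene. Matches of ACGTG on either strand are in capitals, written as they read on the gene's strand. Slc2a1 (chr4:119108495-119108744, plus strand), Hk2 (chr6:82774455-82774704, minus strand), Pgk1 (chrX:106186850-106187099, plus strand) and Pgam1 (chr19:41911621-41911870, plus strand) fell in VR versus R and hold the motif. Pfkl (chr10:78009808-78010057, minus strand) was also lower and does not hold ACGTG in the window, which was not searched for other forms of the core. Hk3 (chr13:55021386-55021635, minus strand) and Pfkfb2 (chr1:130715822-130716071, minus strand) were higher and hold ACGTG.
Slc2a1: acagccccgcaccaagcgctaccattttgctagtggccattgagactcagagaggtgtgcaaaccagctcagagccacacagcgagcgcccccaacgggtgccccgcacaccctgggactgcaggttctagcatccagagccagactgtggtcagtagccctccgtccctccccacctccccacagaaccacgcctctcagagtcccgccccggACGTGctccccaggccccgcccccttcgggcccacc
Hk2: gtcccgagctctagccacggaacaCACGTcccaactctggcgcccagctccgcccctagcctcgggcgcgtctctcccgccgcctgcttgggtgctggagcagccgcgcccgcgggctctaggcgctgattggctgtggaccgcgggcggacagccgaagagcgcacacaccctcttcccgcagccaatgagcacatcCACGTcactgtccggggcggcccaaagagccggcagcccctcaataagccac
Pgk1: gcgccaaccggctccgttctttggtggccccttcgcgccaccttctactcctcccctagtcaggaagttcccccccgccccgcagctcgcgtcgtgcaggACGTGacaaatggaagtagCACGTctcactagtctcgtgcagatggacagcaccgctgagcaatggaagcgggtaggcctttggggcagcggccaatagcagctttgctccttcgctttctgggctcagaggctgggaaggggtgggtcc
Pgam1: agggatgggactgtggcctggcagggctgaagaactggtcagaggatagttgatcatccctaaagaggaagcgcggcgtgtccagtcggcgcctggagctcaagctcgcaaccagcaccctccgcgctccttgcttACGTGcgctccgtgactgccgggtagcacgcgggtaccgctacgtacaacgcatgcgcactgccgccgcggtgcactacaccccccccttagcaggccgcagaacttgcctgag
Pfkl: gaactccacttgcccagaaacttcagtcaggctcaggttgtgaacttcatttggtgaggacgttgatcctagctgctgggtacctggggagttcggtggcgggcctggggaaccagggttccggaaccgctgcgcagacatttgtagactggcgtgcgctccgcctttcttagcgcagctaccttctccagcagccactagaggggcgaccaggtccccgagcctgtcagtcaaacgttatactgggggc
Hk3: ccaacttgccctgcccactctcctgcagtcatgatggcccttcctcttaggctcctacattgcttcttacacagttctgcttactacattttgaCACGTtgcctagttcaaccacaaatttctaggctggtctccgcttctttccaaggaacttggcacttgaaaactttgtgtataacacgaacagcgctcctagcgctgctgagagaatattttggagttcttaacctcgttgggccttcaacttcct
Pfkfb2: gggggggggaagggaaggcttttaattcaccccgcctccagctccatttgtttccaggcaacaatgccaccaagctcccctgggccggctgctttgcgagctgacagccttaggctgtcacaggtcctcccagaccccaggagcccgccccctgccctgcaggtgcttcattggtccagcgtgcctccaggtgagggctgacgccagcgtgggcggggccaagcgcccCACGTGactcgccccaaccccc

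The motif started 36 bases before the start of Slc2a1, 226 and 52 bases before that of Hk2 and 150 and 131 bases before that of Pgk1. Over all members with a promoter, 13 of 33 (39.4%) held ACGTG, against 16.6% of 27025 promoters of the same length. It was present in 7 of 14 members that fell in VR versus R, in 2 of 3 higher members and in 4 of 11 that did not pass. The E-box CACGTG, which contains ACGTG on both strands, was found in 2 members, Pfkm and Pfkfb2, or 6.06%, against 6.05% of all promoters. The GC box GGGCGG was found in 20 members (60.6%, against 32.9%) and the TATA box TATAAA in 2 (6.06%, against 13.0%). Both higher and lower members thus carried ACGTG, and its share was not compared by a test.

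Slc2a1, the basal glucose transporter GLUT1, had the largest decrease among members in VR versus R. It read 10.67, 10.67, 10.66 and 10.96 in VR tumors 1, 2, 4 and 5, 10.96, 10.85, 12.02 and 11.16 in VdR tumors and 12.65, 11.90, 12.77 and 11.63 in R tumors. The VR tumors lay close together and below every R tumor, and among VdR tumors only tumor 4 reached the level of R. The log2 fold change in VR versus R was -1.50 (SE 0.28, adjusted p = 0.00273), a 2.83-fold decrease, and that in VdR versus R was -0.99 (SE 0.28, adjusted p = 0.0417). The VdR call was lost without R tumor 1 or 4 or without VdR tumor 1, 2 or 5. Processing also removed it: without a filter the adjusted p was 0.0560, with the trend and robust options 0.0777 and with only these groups fitted 0.0948. Slc2a3, the high-affinity transporter GLUT3, read 6.89, 7.10, 7.09 and 7.35 in VR, 6.99, 6.81, 6.95 and 6.70 in VdR and 7.94, 7.26, 8.41 and 7.01 in R tumors. It was highest in R tumors 1 and 4 and did not pass in VR versus R (-0.55, adjusted p = 0.125) or VdR versus R (-0.79, adjusted p = 0.0594), although every VdR tumor lay below every R tumor.

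**Figure D2:**
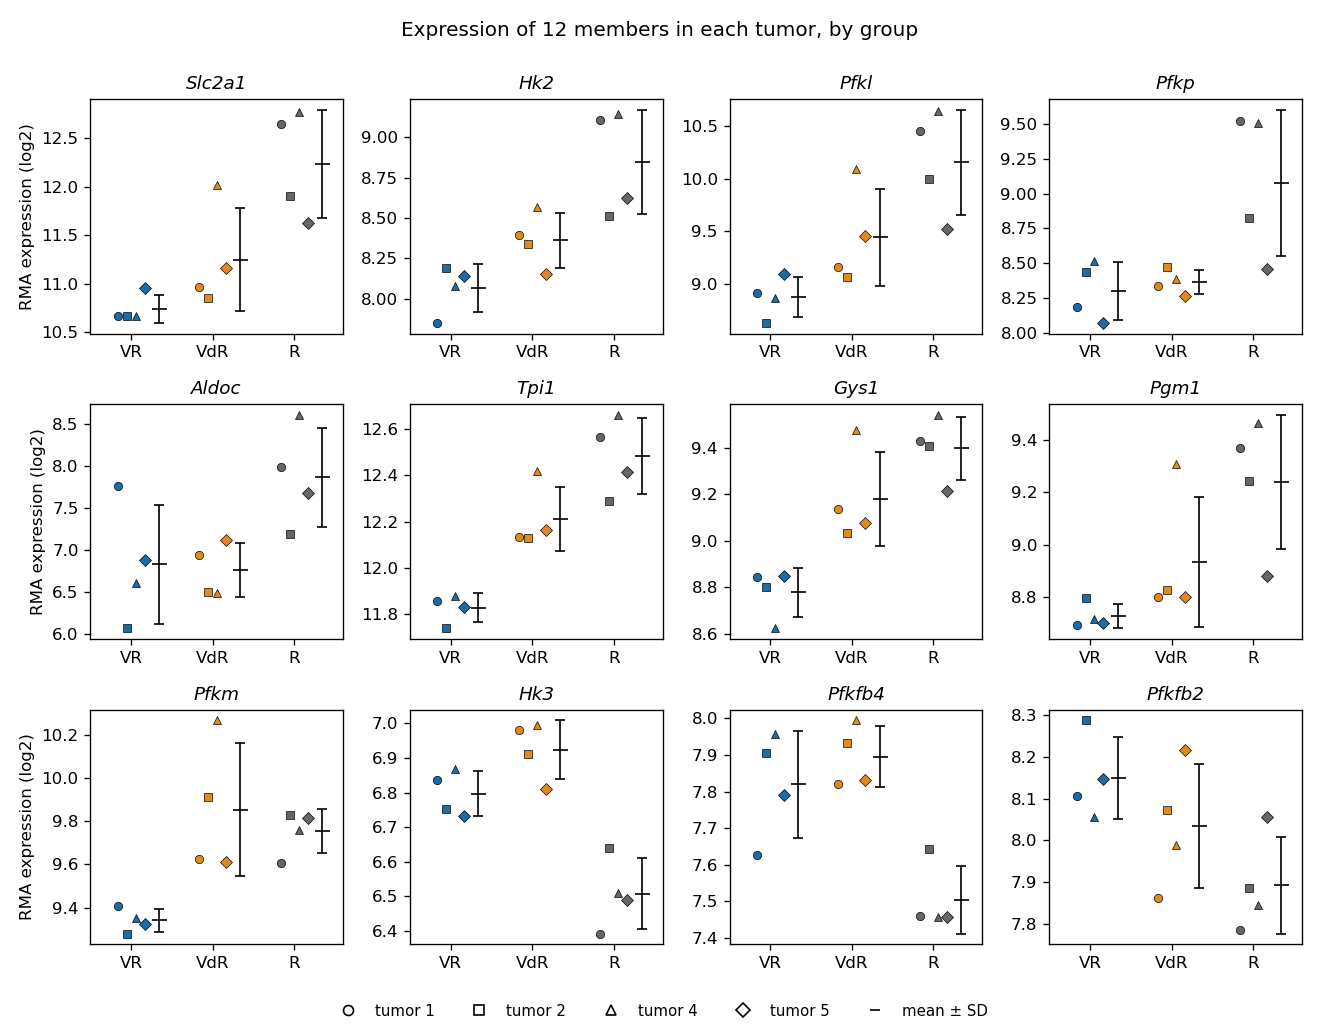
RMA expression (y axis, log2) of 12 members in VR, VdR and R tumors (x axis), with a point for each tumor and the mean ± SD of 4 tumors beside them. The VR points of Slc2a1, from 10.66 to 10.96, lie below all R points, from 11.63 to 12.77, while Hk3 lies above R in both Vnn1 groups.

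Hexokinases phosphorylate glucose and keep it in the cell. Hk2, the inducible form of muscle, fat and many tumors, read 7.85, 8.19, 8.08 and 8.14 in VR, 8.40, 8.34, 8.57 and 8.15 in VdR and 9.11, 8.52, 9.14 and 8.63 in R tumors. No VR tumor reached an R tumor, and the log2 fold change in VR versus R was -0.78 (SE 0.14, adjusted p = 0.00267). In VdR versus R it was -0.48 (adjusted p = 0.0538). Hk3, a form known from blood cells, went the other way and read 6.84, 6.75, 6.87 and 6.73 in VR, 6.98, 6.91, 6.9952 and 6.81 in VdR and 6.39, 6.64, 6.51 and 6.49 in R tumors. Both Vnn1 groups lay above every R tumor, with 0.29 in VR versus R (SE 0.06, adjusted p = 0.00784) and 0.42 in VdR versus R (SE 0.06, adjusted p = 0.00175). Macrophage markers moved with it: 13 of 14 were higher in VR and 14 of 14 in VdR than in R tumors, where 13.6% and 6.58% of all genes were. Their summed level (log2) was 14.81 to 14.91 in VR, 14.90 to 15.17 in VdR and 13.82 to 14.23 in R. Their part in the rise of Hk3 was not tested.

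The ubiquitous hexokinase Hk1 did not pass in any comparison, but its measurement depended on the probeset. The probeset with the highest mean read 13.05, 13.04, 13.00 and 13.03 in VR, 12.71, 12.95, 12.91 and 13.03 in VdR and 13.11, 13.03, 12.97 and 12.97 in R tumors. Across the 12 arrays its values correlated at 0.49 to 0.91 (median 0.88) with 16 probesets that list Rpl17, a ribosomal protein gene, together with Hk1, and at 0.078 with the Hk1 probeset that cites a RefSeq transcript. The RefSeq probeset read 10.41, 10.26, 10.37 and 10.37 in VR, 10.36, 10.36, 10.43 and 10.28 in VdR and 10.50, 10.39, 10.60 and 10.39 in R tumors. With it the VR versus R difference was -0.12 (adjusted p = 0.186), against 0.0081 (adjusted p = 0.937) with the highest-mean probeset. Values of Hk1 from the highest-mean probeset are therefore uncertain.

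Phosphofructokinase is the committed step, and all 3 of its genes fell in VR versus R. Pfkl, the liver form, read 8.91, 8.63, 8.87 and 9.09 in VR, 9.16, 9.07, 10.09 and 9.46 in VdR and 10.45, 10.00, 10.65 and 9.52 in R tumors. All VR tumors lay below all R tumors, at -1.28 on the log2 scale (SE 0.25, adjusted p = 0.00382), and the VdR tumors spread over most of the range between them (-0.71 versus R, adjusted p = 0.1002). Pfkp, the platelet form, read 8.19, 8.43, 8.51 and 8.07 in VR, 8.34, 8.47, 8.38 and 8.27 in VdR and 9.52, 8.82, 9.51 and 8.46 in R tumors. R tumors 1 and 4 stood above the others, R tumor 5 overlapped with both Vnn1 groups, and the fold change was -0.78 in VR (SE 0.20, adjusted p = 0.0174) and -0.71 in VdR (SE 0.20, adjusted p = 0.0458) versus R. The VR call was lost without R tumor 1 (adjusted p = 0.0521) or R tumor 4 (adjusted p = 0.0548), and the VdR call without any of these or of the VdR tumors. The VdR call was also lost without a filter (adjusted p = 0.0603), with the trend and robust options (0.0548) and with only these groups fitted (0.0867).

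Pfkm, the muscle form, had a different order of groups. It read 9.41, 9.28, 9.35 and 9.32 in VR, 9.62, 9.91, 10.27 and 9.61 in VdR and 9.61, 9.83, 9.76 and 9.82 in R tumors. VR tumors lay below all others, at -0.41 versus R (SE 0.12, adjusted p = 0.0301) and -0.51 versus VdR (SE 0.12, adjusted p = 0.0419). VdR tumors 2 and 4, which had the highest Pfkm, were those with high skeletal muscle genes in that group. With the muscle class of each tumor as a term in the model the differences were -0.36 versus R (adjusted p = 0.0287) and -0.46 versus VdR (adjusted p = 0.0414), and with the 5 tumors left out -0.32 (adjusted p = 0.0215) and -0.25 (adjusted p = 0.148). The R call was lost without R tumor 2, 4 or 5 or VR tumor 2, 4 or 5 (adjusted p from 0.0606 to 0.0737), and the VdR call without VdR tumor 2 or 4 or any VR tumor.

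The Pfkfb genes encode bifunctional enzymes that make and degrade the bisphosphate that activates phosphofructokinase. Pfkfb4 read 7.63, 7.91, 7.96 and 7.79 in VR, 7.82, 7.93, 7.99 and 7.83 in VdR and 7.46, 7.64, 7.46 and 7.46 in R tumors. It was higher in VR (0.32, SE 0.08, adjusted p = 0.0126), where VR tumor 1 overlapped with R tumor 2, and in VdR (0.39, SE 0.08, adjusted p = 0.00739), where the groups did not overlap. Macrophage markers were higher in the same groups, as given beside Hk3, and their part in the rise of Pfkfb4 was not tested. Pfkfb2, known from heart and kidney, read 8.11, 8.29, 8.06 and 8.15 in VR, 7.86, 8.07, 7.99 and 8.22 in VdR and 7.79, 7.88, 7.85 and 8.06 in R tumors. The VR versus R difference of 0.26 (SE 0.08, adjusted p = 0.0464) lay near the threshold and was lost on leaving out any VR tumor or R tumor 1, 2 or 4. Pfkfb3, the inducible form of proliferating cells, read 7.61, 8.17, 7.87 and 7.71 in VR, 7.62, 7.82, 7.92 and 7.63 in VdR and 8.05, 8.08, 8.13 and 7.39 in R tumors. It did not pass in any comparison, and R tumor 5 was the lowest of all tumors.

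Aldolase cleaves the hexose and triose phosphate isomerase interconverts the products, and all 3 measured genes of these steps fell in VR versus R. Aldoa, the muscle and general form, read 12.10, 12.09, 12.04 and 12.13 in VR, 12.23, 12.20, 12.57 and 12.23 in VdR and 12.58, 12.45, 12.68 and 12.29 in R tumors. Its VR tumors lay below those of both other groups, at -0.41 versus R (SE 0.09, adjusted p = 0.00933) and -0.21 versus VdR (adjusted p = 0.243). Tpi1 read 11.86, 11.74, 11.88 and 11.83 in VR, 12.13, 12.13, 12.42 and 12.17 in VdR and 12.57, 12.29, 12.66 and 12.41 in R tumors. VR tumors were again below all others, and the difference was -0.66 versus R (SE 0.09, adjusted p = 4.59e-04), the lowest adjusted p among members, and -0.38 versus VdR (SE 0.09, adjusted p = 0.0361). The VdR call was lost without VdR tumor 1, 4 or 5 or any VR tumor (adjusted p from 0.0531 to 0.0950), with arrays centred on their median (adjusted p = 0.0598) and without the 5 tumors high in muscle genes (adjusted p = 0.107). Aldoc, the brain form, read 7.76, 6.07, 6.61 and 6.89 in VR, 6.95, 6.50, 6.50 and 7.13 in VdR and 7.99, 7.20, 8.61 and 7.68 in R tumors. VR tumor 1 lay within the R range, the fold change of -1.03 (SE 0.34, adjusted p = 0.0490) was lost without R tumor 1, 4 or 5 or VR tumor 2, 4 or 5, and VdR versus R gave -1.10 (adjusted p = 0.0656).

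In lower glycolysis, 3 of 5 measured genes fell in VR versus R. Pkm, whose M2 splice form is common in tumors and is not told apart here, read 11.95, 11.81, 11.77 and 11.78 in VR, 12.0035, 12.04, 12.33 and 12.14 in VdR and 12.31, 12.03, 12.43 and 12.26 in R tumors. The VR tumors lay below both other groups, at -0.43 versus R (SE 0.09, adjusted p = 0.00630) and -0.30 versus VdR (adjusted p = 0.0906). Pgk1, phosphoglycerate kinase, ranged from 11.74 to 11.98 in VR, 11.93 to 12.29 in VdR and 12.07 to 12.59 in R tumors. It was -0.45 in VR versus R (SE 0.12, adjusted p = 0.0220), a call lost without R tumor 1 or 4 or VR tumor 2 or 4. Pgam1, phosphoglycerate mutase, ranged from 11.90 to 12.26 in VR, 12.20 to 12.45 in VdR and 12.31 to 12.69 in R tumors, with -0.43 in VR versus R (SE 0.10, adjusted p = 0.00916). Pgk1, Pgam1 and Pkm thus differed between VR and R by similar amounts, and VR and R tumors did not overlap. The VdR tumors overlapped with the R tumors in each of these genes.
Eno2, the neuronal enolase, read 7.09, 7.61, 7.51 and 7.16 in VR, 6.91, 7.22, 7.95 and 7.48 in VdR and 7.80, 7.83, 8.28 and 7.46 in R tumors. Pklr, the liver and red cell pyruvate kinase, read 6.57, 6.28, 6.57 and 6.60 in VR, 6.77, 6.51, 6.61 and 6.69 in VdR and 6.84, 6.53, 6.84 and 6.68 in R tumors. Neither passed in VR versus R (-0.50, adjusted p = 0.118 for Eno2 and -0.22, adjusted p = 0.118 for Pklr), and the groups overlapped.

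Of the genes of glycogen synthesis and breakdown, 3 of 7 fell in VR versus R and 0 rose. Gys1, the glycogen synthase of muscle and most other tissues, read 8.84, 8.80, 8.62 and 8.85 in VR, 9.14, 9.03, 9.48 and 9.07 in VdR and 9.43, 9.41, 9.54 and 9.21 in R tumors. VR tumors lay below both other groups, at -0.62 versus R (SE 0.10, adjusted p = 0.00139) and -0.40 versus VdR (SE 0.10, adjusted p = 0.0492). The VdR call was lost without any single VR or VdR tumor (adjusted p from 0.0504 to 0.1305), without a filter, with another scaling, with only these groups fitted and with muscle class as a term (adjusted p = 0.0607). Pgm1, a phosphoglucomutase that links glycogen to glycolysis, read 8.70, 8.80, 8.72 and 8.70 in VR, 8.80, 8.83, 9.31 and 8.80 in VdR and 9.37, 9.24, 9.47 and 8.88 in R tumors. It was -0.51 in VR versus R (SE 0.13, adjusted p = 0.0158), with a narrow gap between VR tumor 2 and R tumor 5, and the call was lost without R tumor 4 (adjusted p = 0.0523). Pgm2, the related mutase that also acts on pentose phosphates, read 10.05, 10.10, 10.05 and 10.20 in VR, 10.29, 10.26, 10.19 and 10.35 in VdR and 10.37, 10.35, 10.40 and 10.56 in R tumors. Its spread was small, and the VR versus R difference was -0.32 (SE 0.06, adjusted p = 0.00332).

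Of the phosphorylases, which release sugar from glycogen, neither passed in VR versus R. Pygl, the liver form, read 6.74, 6.82, 6.80 and 6.62 in VR, 6.51, 6.73, 6.70 and 6.46 in VdR and 6.90, 7.19, 7.10 and 6.73 in R tumors. It was lower in VdR than in R (-0.38, SE 0.10, adjusted p = 0.0312), with VdR tumor 2 level with R tumor 5, and the call was lost without R tumor 1, 2 or 4 or VdR tumor 1 or 5. Pygb, the brain form, read 10.46, 10.22, 10.39 and 10.44 in VR, 10.63, 10.56, 10.53 and 10.53 in VdR and 10.43, 10.38, 10.47 and 10.54 in R tumors. Its VR tumors lay below the VdR tumors, at -0.18 (adjusted p = 0.121). The branching enzyme Gbe1 ranged from 8.44 to 8.65 in VR, 8.32 to 8.65 in VdR and 8.32 to 8.57 in R tumors, and Ugp2, which makes the UDP-glucose that glycogen synthase uses, from 9.65 to 9.82 in VR, 9.41 to 9.71 in VdR and 9.54 to 9.73 in R tumors. Both overlapped between groups and did not pass.

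The pentose phosphate genes did not pass in any comparison, in 3 of 3 measured. Pgd, phosphogluconate dehydrogenase, which makes NADPH, ranged from 11.25 to 11.62 in VR, 11.68 to 11.75 in VdR and 11.40 to 11.77 in R tumors. Tkt, transketolase, ranged from 8.67 to 8.80 in VR, 8.76 to 8.96 in VdR and 8.79 to 9.11 in R tumors, and Taldo1, transaldolase, from 9.03 to 9.20 in VR, 9.27 to 9.37 in VdR and 8.87 to 9.40 in R tumors. Their log2 fold changes in VR versus R were -0.22, -0.21 and -0.08, with adjusted p of 0.102, 0.0579 and 0.541 in that order. VR lay below every VdR tumor for Pgd (-0.29, adjusted p = 0.104) and Taldo1 (-0.21, adjusted p = 0.237). That these genes did not pass while others did was not tested as a difference between steps.

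Between VdR and R tumors, 3 members were lower and 2 were higher, against 2.81% and 6.58% of all genes, and the median log2 fold change was -0.17, against 0.0038 over all genes. Slc2a1, Pfkp and Pygl were lower, and Hk3 and Pfkfb4 were higher. In 2 members, Slc2a3 and Aldoc, every VdR tumor lay below every R tumor, and in 2, Hk3 and Pfkfb4, above, where 4.5% and 9.73% of all genes did so. The count of lower members rested on single tumors. It was 0 without R tumor 1 or 4 or without VdR tumor 1 or 5, where 1.5% to 2.41% of all genes were lower. It was 1 without VdR tumor 2 (1.67% of all genes), 6 without R tumor 2 (3.2%), 7 without R tumor 5 (2.97%) and 7 without VdR tumor 4 (2.33%). Without the 5 tumors high in muscle genes it was 12, where 2.29% of all genes were lower. That setting compared only VdR tumors 1 and 5 with R tumors 1 and 4, the R tumors with the highest member means. It also left out VdR tumor 4, which had the highest member mean of its group (9.56), so muscle content and this selection cannot be told apart. With muscle class as a term the count was 5, where 3.1% of all genes were lower. Hk3 was higher in each of these cases, and Pfkfb4 was higher in all but the setting without the 5 tumors (adjusted p = 0.0845).

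Between VR and VdR tumors, which differ in the catalytic activity of the encoded Vnn1, 3 members were lower in VR and 0 were higher, against 1.67% and 1.77% of all genes. These were Pfkm, Tpi1 and Gys1, and the median over members was -0.17, against -0.018 over all genes. At an unadjusted threshold the methods' t-test, which the study names beside qRT-PCR and not for its arrays, gave 9 lower and 0 higher. Over all genes, 9.27% and 7.86% passed in that test. In 9 members every VR tumor lay below every VdR tumor and in 0 above, where 6.77% and 5.88% of all genes did so. The count of lower members was 0 or 1 on leaving out any single VR or VdR tumor, where 0.326% to 1.41% of all genes were lower. It was 0 with arrays centred on their median (0.917%) and 0 without the 5 tumors high in muscle genes (0.0121%). The Vnn1 level itself differed between VR and VdR tumors by -0.69 (SE 0.14, adjusted p = 0.0292), so amount and activity of Vnn1 differ together here and cannot be told apart. Group means ran VR, VdR, R from low to high in 15 of 29 members, and the share of all genes with that order was not counted. Among these 15 members, only Tpi1 and Gys1 passed between VR and VdR, and only Slc2a1 and Pfkp between VdR and R.

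Ratios within a tumor were used to see whether isoforms of a step moved apart, and 11 of 12 planned pairs could be formed, since Eno1 was not measured. In 33 tests, 8 reached 0.0286, the smallest p that 4 tumors against 4 allow in a two-sided exact permutation test, and none passed after adjustment over the tests (smallest adjusted p = 0.118). The log2 ratio of Slc2a3 to Slc2a1 was -3.78, -3.57, -3.57 and -3.61 in VR, -3.97, -4.04, -5.07 and -4.46 in VdR and -4.71, -4.64, -4.36 and -4.62 in R tumors. It was 0.95 higher in VR than in R and 0.75 higher in VR than in VdR, without overlap (exact permutation p = 0.0286 and adjusted p = 0.118 for each). The ratio of Pygl to Pygb was -3.72, -3.39, -3.59 and -3.82 in VR, -4.12, -3.83, -3.83 and -4.06 in VdR and -3.53, -3.20, -3.37 and -3.81 in R tumors. VdR tumors were lowest, by -0.48 versus R, and VR exceeded VdR by 0.33 (exact permutation p = 0.0286 and adjusted p = 0.118 for each).
Hk2 over Hk1 differed by -0.79 and Hk3 over Hk1 by 0.28 between VR and R, and Hk3 over Hk1 by 0.54 between VdR and R (exact permutation p = 0.0286 and adjusted p = 0.118 for each). With the RefSeq probeset of Hk1 these differences were -0.66, 0.41 and 0.53 (exact permutation p = 0.0286 and adjusted p = 0.105 for each). Pfkfb3 over Pfkfb4 was -0.56 in VdR versus R (exact permutation p = 0.0286, adjusted p = 0.118). Pfkm over Pfkl was 0.50, 0.65, 0.49 and 0.23 in VR, 0.47, 0.84, 0.18 and 0.15 in VdR and -0.84, -0.17, -0.89 and 0.29 in R tumors. R tumors 1 and 4 were lowest and R tumor 5 overlapped with VR (0.87 higher in VR than in R, exact permutation p = 0.0571, adjusted p = 0.157). The other pairs, Pfkp/Pfkl, Pfkfb2/Pfkfb4, Aldoc/Aldoa, Pklr/Pkm and Pgm2/Pgm1, had exact permutation p of 0.0571 or more.

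**Figure D3:**
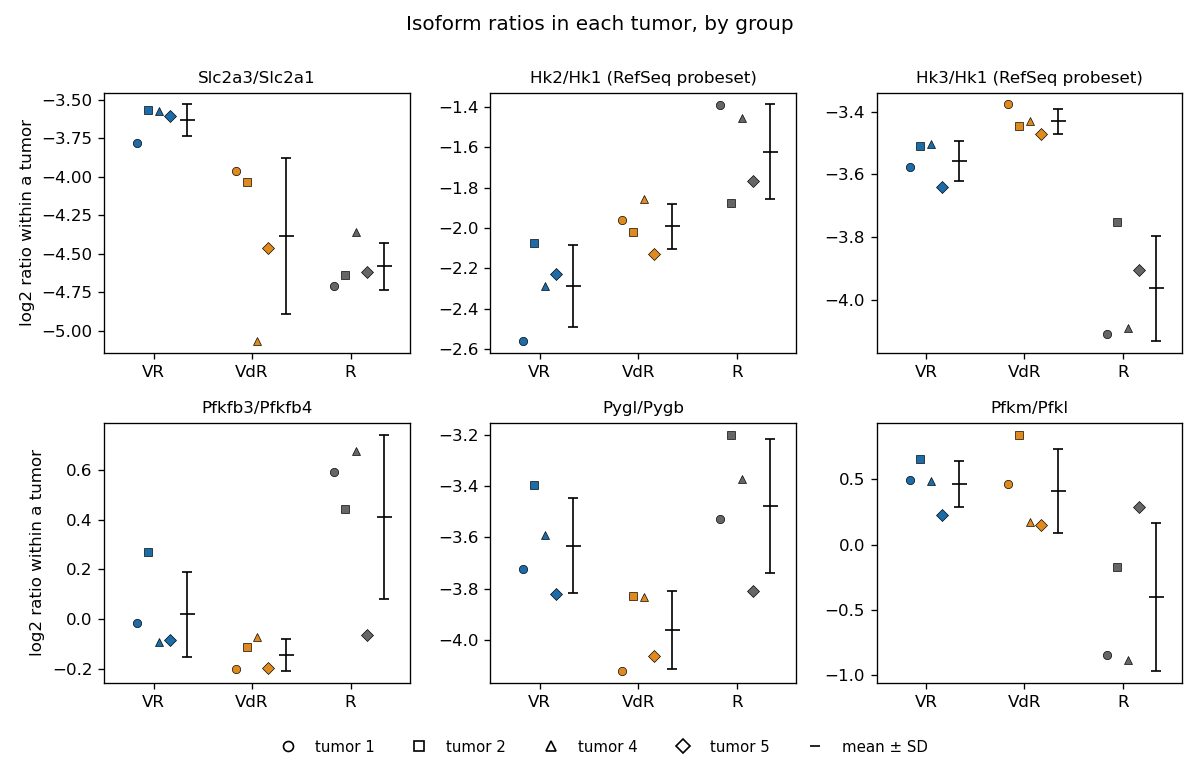
Log2 ratio of isoforms within a tumor (y axis) in VR, VdR and R tumors (x axis) for 6 pairs (Hk1 from its RefSeq probeset), with a point for each tumor and the mean ± SD of 4 tumors beside them. VR tumors hold the highest Slc2a3/Slc2a1 ratios, from -3.78 to -3.57, and VdR tumors the lowest Pygl/Pygb mean, -3.96.

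Other genes of these pathways were counted by list. Of 26 other glycolysis and gluconeogenesis genes tested, 2 fell in VR versus R and 0 rose (median -0.044), a share of lower genes near the 7.48% over all genes. These were Slc2a13, an inositol transporter (-0.48, adjusted p = 0.0186), and Ldha, lactate dehydrogenase A, with 12.40, 12.33, 12.33 and 12.33 in VR and 12.74, 12.55, 12.71 and 12.49 in R tumors (-0.27, adjusted p = 0.0121). Slc2a6 had the highest value of that list, 0.38 (adjusted p = 0.0572). Over all genes, 13.6% were higher and 7.48% lower. Of 20 other glycogen genes, 2 were higher, both regulatory subunits of phosphorylase kinase (Phka1, 0.42, adjusted p = 0.0108, and Phka2, 0.43, adjusted p = 0.0183), and 2 were lower, both targeting subunits of protein phosphatase 1 (Ppp1r3c, -0.50, adjusted p = 0.0455, and Ppp1r3f, -0.22, adjusted p = 0.0225). Of 9 other pentose phosphate genes, 2 were higher, namely Rbks, ribokinase (0.19, adjusted p = 0.0384), and Prps2, which turns ribose phosphate into the precursor of nucleotides. Prps2 read 10.34, 10.14, 10.21 and 10.25 in VR, 10.29, 10.29, 10.01 and 10.04 in VdR and 9.69, 9.79, 9.59 and 9.79 in R tumors, and both Vnn1 groups lay above all R tumors (0.52, adjusted p = 0.00108, and 0.45, adjusted p = 0.00443). Among 11 genes of other sugar branches, Galt of galactose use was higher (0.40, adjusted p = 8.11e-04), and Gnpnat1 (-0.29, adjusted p = 0.0259) and Ugdh (-0.27, adjusted p = 0.0130) were lower, all in VR versus R. Gfpt2 of hexosamine synthesis had the highest value of that list, 0.57, and did not pass (adjusted p = 0.1665).

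The level of the members differed from tumor to tumor within R. The mean over the 29 members was 9.27, 9.23, 9.27 and 9.30 in VR tumors 1, 2, 4 and 5, 9.36, 9.36, 9.56 and 9.37 in VdR tumors and 9.72, 9.52, 9.83 and 9.48 in R tumors. R tumors 1 and 4 were highest, R tumors 2 and 5 lay below VdR tumor 4, and the VR tumors spread least. A list of 14 hypoxia genes had means of 8.46, 8.54, 8.57 and 8.71 in VR, 8.68, 8.68, 9.54 and 8.95 in VdR and 10.25, 9.70, 10.34 and 9.08 in R tumors. The same R tumors 1 and 4 were highest and VdR tumor 4 was the highest of its group. Of these 14 genes 14 were lower in VR than in R and 4 in VdR than in R, against 7.48% and 2.81% of all genes. Between VR and VdR 0 passed, against 1.67% lower and 1.77% higher over all genes. All 14 nevertheless had a log2 fold change below 0 there, with a median of -0.415, against -0.018 over all genes. In 4 of them every VR tumor lay below every VdR tumor, where 6.77% of all genes did so. From gene set enrichment on J2A tumors, the study had already tied the leading signature of R tumors to glycolysis and hypoxia. By qRT-PCR in H1 tumors it had also reported Car9, Adm, Bnip3 and Pdk1 as changed, and the members Slc2a1 (Glut1) and Hk2. Neither the members nor this list were therefore chosen blind, and the counts reread a known result of the same tumors. The fold changes of the 14 genes in VR versus R ran from -2.35 for Car9, a carbonic anhydrase (adjusted p = 0.00750), to -0.50 for Egln1, an oxygen-sensing hydroxylase (adjusted p = 0.00158). Mxi1 (-0.73, adjusted p = 8.59e-04), Ankrd37 (-1.39, adjusted p = 0.00127) and the lactate exporter gene Slc16a3 (-1.89, adjusted p = 0.00224) were among the lowest adjusted p. The part of hypoxia in the members' levels was not tested.

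**Figure D4:**
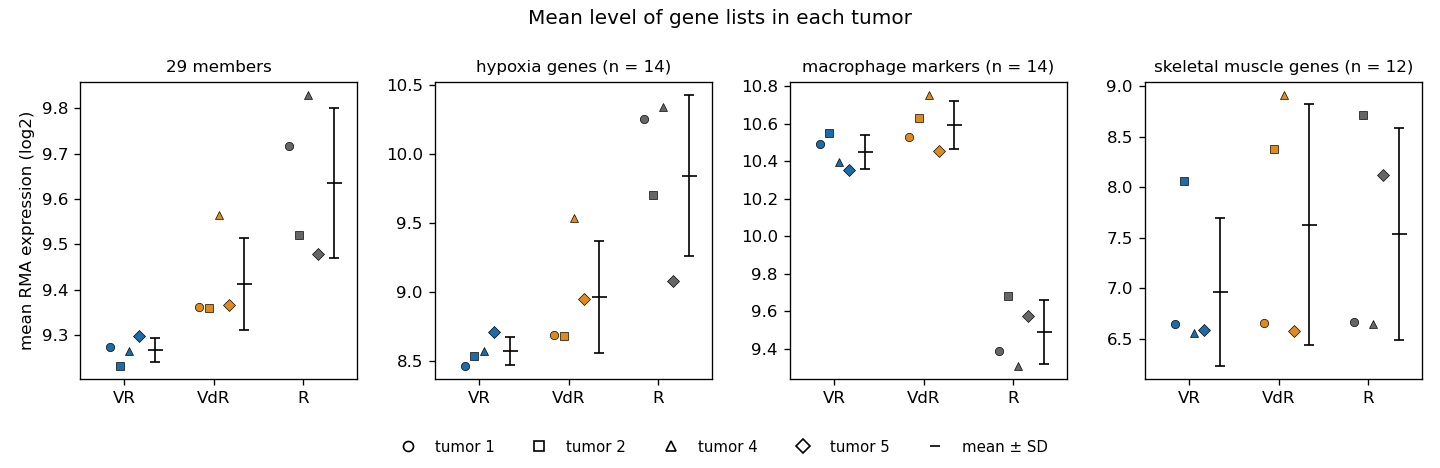
Mean RMA expression (y axis, log2) of the 29 members, of 14 hypoxia genes, of 14 macrophage markers and of 12 skeletal muscle genes in VR, VdR and R tumors (x axis), with a point for each tumor and the mean ± SD of 4 tumors beside them. R tumors 1 and 4 are highest for both members and hypoxia genes, macrophage markers are lowest in R, and 5 tumors from all groups are high in muscle genes.

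Some markers of other cells also differed between the groups. Macrophage markers ranged from 0.32 for Cd14 (adjusted p = 0.0606) to 1.46 for Itgam (adjusted p = 2.87e-04) in VR versus R, with Adgre1 at 1.45 (adjusted p = 4.64e-05) and Csf1r at 1.16 (adjusted p = 5.06e-05). Over all genes, 13.6% were higher in VR than in R and 6.58% in VdR than in R. Myofibroblast markers were higher in 7 of 12 in VR than in R and in 0 of 12 in VdR than in R. In VR versus R, 4 of 5 dendritic cell, 2 of 5 NK and T cell, 2 of 6 mast cell and 2 of 7 endothelial markers were higher. Of 8 neutrophil markers listed, 4 were tested, 1 was higher and 3 did not pass. Of 4 erythroid markers listed, 1 was tested and was higher. Of adipocyte and keratinocyte markers, 0 of 6 and 0 of 4 passed. None of the 12 skeletal muscle genes passed, and their summed level (log2) was 10.39 to 12.21 in VR, 10.44 to 13.25 in VdR and 10.45 to 13.04 in R tumors. The part of cell composition in the members' decreases was not tested.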

How the data were processed

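RNA of 12 tumors was hybridised to Affymetrix mouse gene arrays, 1 array per tumor. The deposited values are log2 expression that the authors obtained with RMA in the oligo package, with no version stated. The arrays held 35556 probesets, of which 21789 carried 1 gene symbol, 1621 several and 12146 none in the platform annotation. Those with 1 symbol were used, and 21698 of them matched RefSeq by Entrez identifier. A gene was read from its probeset with the highest mean, which gave 19938 genes. A gene had to exceed 5.38, the lower quartile, in 4 or more arrays, and 16573 did. They were fitted with limma 3.58.1 (R 4.3.3) in a single model of the 3 groups, p-values were adjusted by Benjamini and Hochberg, and 0.05 was the threshold. Isoform ratios were tested with a two-sided exact permutation test. Python 3.11.15, pandas 2.3.3, numpy 2.4.6, scipy 1.17.1 and matplotlib 3.10.9 were used, and the fit was tested on simulated data. The precision is limited by the number of arrays.

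The members and lists were chosen with earlier results of these data known. Values in every tumor are given for members that passed in any comparison with a log2 fold change of at least 0.5 in size, for those called against the main direction and for isoform pairs, and other members are given by range. Of the other lists, the genes with the 4 lowest adjusted p in each direction in VR versus R and the extremes were eligible for naming. Alternatives covered the filter, probesets, scaling, array weights and the trend and robust options. They also covered the samples in the fit, the replicate number as a block, each tumor left out and a t-test per gene. It is called the methods' t-test, since the study's methods name a t or ANOVA test beside qRT-PCR. For the arrays they describe gene set enrichment and no test of single genes. The RefSeq probeset of Hk1 and the settings on skeletal muscle genes were chosen after seeing the data. Deviations from the group mean correlated at -0.14 to 0.39 between tumors of the same number, above 0.1 in 7 of 12 pairs. For number 2 they were 0.22, 0.39 and 0.35. Tumors of different numbers were not compared in this way, so whether the numbers pair the tumors was not settled.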

Additional observations from a re-analysis of the deposited data

Results flagged for a closer look

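Of 120 sets of 4 tumors, 7 held a tumor far from the other 3 by Dixon's test, and chance gives about 1 in 20. Slc2a1 was 10.96 in VR tumor 5, against 10.66 to 10.67 in the other VR tumors. Pklr was 6.28 in VR tumor 2, against 6.57 to 6.60. VdR tumor 4 was high for Aldoa (12.57, others 12.20 to 12.23), Tpi1 (12.42, others 12.13 to 12.17) and Pgm1 (9.31, others 8.80 to 8.83). This tumor also had the highest skeletal muscle mean of all tumors, 8.91, and the highest hypoxia mean of its group, 9.54. Pfkfb3 was 7.39 in R tumor 5, against 8.05 to 8.13, and Pfkfb4 was 7.64 in R tumor 2, against 7.46 in each of the others.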

How the results depend on the processing

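No called result, and no member difference of at least 0.2 in size, changed direction under the alternatives run. In VR versus R, 14 members were lower and 3 higher. The methods' t-test gave 9 lower and 1 higher (4.05% and 8.74% of all genes), and 1 was higher without the tumors high in muscle genes (11%). Leaving out each tumor gave 9 lower members without R tumor 4 and up to 15, and 2 to 3 higher ones. Over all genes, 4.68% to 7.91% were lower and 10.1% to 13.9% higher in those fits. Slc2a1, Hk2, Hk3, Pfkl, Aldoa, Tpi1, Pkm, Gys1 and Pgm2 passed in VR versus R under every alternative run. In VdR versus R, 3 members were lower (2.81% of all genes). The count was 1 with no filter (Pygl, 2.25% of all genes) and 1 with only the groups compared (Aldoc, 1.92%, while all 3 calls were lost). It was 5 with a stricter filter (4.04%), 5 with cyclic loess (3.91%) and 5 with muscle class as a term (3.1%). It was 12 with array weights (5.06%). Without the tumors high in muscle genes it was 12 (2.29%), with only VdR tumors 1 and 5 and R tumors 1 and 4 compared. The methods' t-test gave 0 (0.615%) and, unadjusted, 7 (6.41%), and leaving out each tumor gave 0 to 7 (1.5% to 3.2%). Without the tumors high in muscle genes, 1 member was higher in place of 2 and the median was -0.38 in place of -0.17. In VR versus VdR, 3 members were lower (1.67% of all genes). The count was 0 with arrays centred on their median (0.917%), 1 with only the groups compared (Tpi1, 1.61%) and 0 without the tumors high in muscle genes (0.0121%). It was 0 with the methods' t-test (0.109%), 9 with that test unadjusted (9.27%), and 0 to 1 on leaving out each tumor (0.326% to 1.41%). With the replicate number as a block, 17 members were lower in VR versus R (9.09% of all genes), 5 in VdR versus R (3.22%) and 2 in VR versus VdR (1.91%). Whether the numbers pair the tumors was not settled, so this fit is given beside the main one, which has no block. The cause of these changes was not tested. The number of arrays limits the precision, and signal over background could not be judged from the normalised values.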
